A study of Mus musculus with 9 samples.

Results

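MAPK output and negative feedback genes are transcripts whose level responds to RAS-ERK signaling, and many of them act back on it. The 10 genes described here, of 55401 genes in the deposited count table, were found by their symbol: the phosphatases Dusp4, Dusp5 and Dusp6, the membrane-associated inhibitors Spry2, Spry4 and Spred2, the transcription factors Etv4, Etv5 and Fosl1, and Phlda1. The set was chosen with earlier results of these data known, so its counts of called genes are a description. Of these, 9 of 10 passed the filter on low counts and were tested among 15717 genes in all, and Fosl1 did not pass.

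In this pathway, growth factor receptors load RAS with GTP, RAS activates the kinases RAF, MEK and ERK in turn, and ERK enters the nucleus and raises transcription of immediate and delayed target genes. Dual-specificity phosphatases remove the activating phosphates from ERK, Sprouty and Spred proteins act higher up between the receptor and RAF, and ETS and AP-1 factors carry the response on to further genes. Transcripts of these genes are therefore widely used as a readout of ERK activity, although ERK phosphorylation itself was not measured in the libraries described here.

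RNA was sequenced from whole livers of 9 female mice in 3 groups of 3. Wild-type livers without treatment served as the baseline (healthy). Livers with RAS/AKT hepatocellular carcinoma (HCC) came from wild-type mice, 6 weeks old when obtained, that received oncogene plasmids through the tail vein, with myristoylated AKT under the EF1α promoter and NRAS-V12 under the CAGGS promoter moved into hepatocytes by the sleeping beauty transposase SB11. At week 1 after the oncogenes these mice received a single dose of blank AAV8 (untreated HCC) or of AAV8 that expresses miR-22 from a CMV promoter (miR-22-treated HCC), and livers were collected at week 5, 4 weeks after the virus. The dose stands as 1 trillion genome copies per kg in the labels and is higher in the study's methods. The labels give the strain as C57BL/6 in one field and as FVB/N in another, the study's methods give FVB/N for all livers, and the protocol also lists an N90-β-catenin plasmid although the design names RAS and AKT. Both HCC groups carried the same oncogenes and an AAV8 vector, so untreated HCC differed from healthy livers by oncogenes, injections and virus together. The same age of 6 weeks when obtained stands in the labels of the healthy mice, without an age at collection. Liver numbers below follow the labels, 1 to 3 for healthy livers and 2 to 4 in both HCC groups, and values are given in that order.

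Library totals lay between 18258660 and 20964551 counts for healthy livers, 18293676 and 23908392 for untreated HCC, and 16664659 and 20459853 after miR-22. Values below are normalized counts, that is, counts divided by a library size scaled by edgeR's trimmed mean of M values (TMM) and brought to the mean library, and errors are SD over 3 livers. As a check of the labels, normalized counts of Akt1 were 2105, 2002 and 2009 in healthy livers, 31315, 32454 and 22700.4 in untreated HCC, and 15472, 13027 and 21424 in miR-22-treated HCC. Those of Nras were 521, 575 and 568, then 1339, 1499 and 1228, then 1073, 1034 and 1069. Both genes were above the healthy range in every HCC liver, and whether plasmid reads were counted with the mouse genes was not tested. Adjusted p-values come from edgeR's quasi-likelihood F test (two-sided, Benjamini-Hochberg over all tested genes), and a gene was called where the adjusted p was under 0.05 and the fold change over 1.5. By this rule Akt1 was lower with miR-22 than in untreated HCC (log2 fold change -0.79, adjusted p = 0.0079), and Nras was not called (-0.36, adjusted p = 0.0129). The labels name separate livers but no batch, cage or day, so the p-values measure the spread between these livers only.

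The mature miRNA that the vector carries is shown first, since its seed decides which of the 10 transcripts hold a match. It is encoded on mouse chromosome 11 (RefSeq, GRCm38.p6, chr11:75463772-75463793, plus strand), and capitals mark the seed, bases 2 to 8.
mmu-miR-22-3p: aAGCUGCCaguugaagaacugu

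The DNA letters that pair with this seed, GGCAGCT on the sense strand, were looked for in the 3′ UTR of the canonical transcript of each gene (GENCODE on GRCm39). They occurred in 4 of the 10 genes, against 14.1% of 20827 genes with a 3′ UTR. Each of the 4 genes held 1 match, printed 5′ to 3′ along the transcript with the match in capitals.
Etv4 (chr11:101660687-101660702, minus strand, 498 bases after the stop codon): atgtgggcGGCAGCTg
Spry2 (chr14:106129098-106129113, minus strand, 1132 bases after the stop codon): ctctacctGGCAGCTc
Spred2 (chr11:19974344-19974359, plus strand, 2905 bases after the stop codon): tggtcttgGGCAGCTc
Fosl1 (chr19:5505889-5505904, plus strand, 561 bases after the stop codon): accgcaagGGCAGCTg
No match was found in the 3′ UTR of Dusp4, Dusp5, Dusp6, Spry4, Etv5 or Phlda1, whose lengths ran from 612 bases in Phlda1 to 3559 in Spry4. A match of letters describes the transcript and is not a measured binding site.

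Tumor formation was accompanied by a call for 8 of the 9 tested genes, 6 of them up and 2 down against healthy livers. Dusp4, Dusp5, Dusp6, Spry2, Etv4 and Etv5 rose, Spry4 and Phlda1 fell, and Spred2 was not called. With miR-22, 3 of the 9 were called against untreated HCC, and all 3 were lower: Dusp4, Etv4 and Etv5. Against healthy livers, miR-22-treated HCC still had 4 genes higher (Dusp4, Dusp5, Spry2, Etv4) and 2 lower (Spry4, Phlda1). Over all 15717 tested genes the called shares were 22.7% higher and 18.1% lower in untreated HCC against healthy livers, 8.32% higher and 5.47% lower in miR-22-treated against untreated HCC, and 16.9% higher and 7.05% lower in miR-22-treated HCC against healthy livers. The median log2 fold change of the 9 genes was 1.33, -0.67 and 0.50 in the 3 comparisons in that order, and over all tested genes it was 0.01, 0.0020 and 0.02. The livers of the compared groups did not overlap for 8, 7 and 5 of the 9 genes, against 65.3%, 39.3% and 48.8% of all tested genes.

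**Figure D1:**
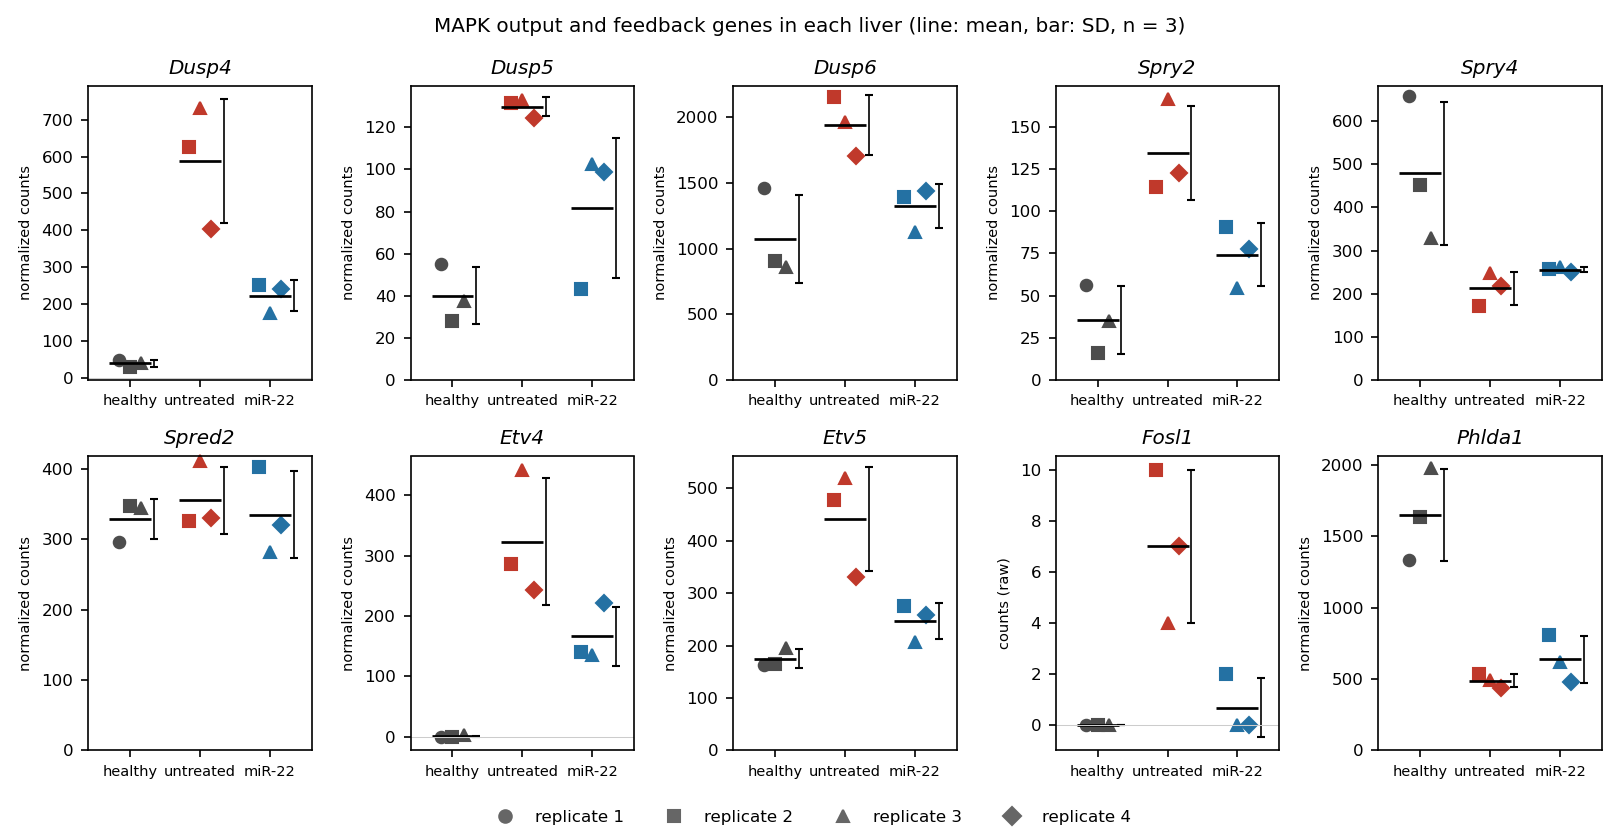
Normalized counts (raw counts for Fosl1) of the 10 genes in each of 9 livers, 1 panel per gene, with the replicate number as the marker shape, a line at the mean and a bar of 1 SD (n = 3). For Dusp4, all 3 untreated HCC livers (404 to 732) stand above the miR-22-treated livers (176 to 252), which stand above the healthy livers (31.8 to 48.8).

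Dusp4 is an inducible nuclear phosphatase of ERK (chr8:35274442-35287048, plus strand, GRCm39, as are all gene positions below). Its normalized counts were 48.8, 31.8 and 40.5 in healthy livers, 626, 732 and 404 in untreated HCC, and 252, 176 and 243 in miR-22-treated HCC. The 3 groups did not overlap, and the miR-22-treated livers lay between the others. The mean rose from 40.4 ± 8.50 to 587 ± 167, a log2 fold change of 3.86 (SE 0.255, adjusted p = 1.4e-07), and stood at 223 ± 41.6 with miR-22, lower than in untreated HCC by a log2 fold change of -1.39 (SE 0.210, adjusted p = 9.0e-04). Dusp4 also stayed above healthy livers after miR-22, with a log2 fold change of 2.47 (SE 0.260, adjusted p = 1.7e-05). These 3 calls held in each of the 18 alternative analyses, although dropping the fold threshold, among the 18, could not end a call.

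Dusp5, a nuclear phosphatase specific for ERK (chr19:53517532-53530862, plus strand), had normalized counts of 54.9, 28.1 and 37.3 in healthy livers, 132, 133 and 125 in untreated HCC, and 43.3, 103 and 98.7 in miR-22-treated HCC. The untreated livers lay close together, whereas miR-22-treated liver 2 fell within the healthy range and the other 2 lay between the groups. The rise in untreated HCC was a log2 fold change of 1.69 (SE 0.319, adjusted p = 5.8e-04). After miR-22 the log2 fold change against untreated HCC was -0.67 (95% interval -1.31 to -0.03, adjusted p = 0.124), which was not called, although it passed with total counts only (adjusted p = 0.0342) and with no filter on low counts (0.0391). Against healthy livers it was 1.02 (SE 0.327, adjusted p = 0.0272), called higher although the livers overlapped. The last call was lost when healthy liver 2 (adjusted p = 0.109), healthy liver 3 (0.0854), miR-22-treated liver 3 (0.0921) or miR-22-treated liver 4 (0.0963) was left out, and with only the 2 groups compared in the fit (0.0545).

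Dusp6, a cytoplasmic phosphatase specific for ERK (chr10:99086564-99103361, plus strand), had the highest level per kb of transcript of the 3 phosphatases in every group. It had 1461, 903 and 856 normalized counts in healthy livers, 2151, 1966 and 1703 in untreated HCC, and 1395, 1128 and 1439.7 in miR-22-treated HCC. Untreated HCC lay above both other groups, and the miR-22-treated livers lay within the healthy range, which healthy liver 1 widened. The log2 fold change was 0.85 (SE 0.179, adjusted p = 0.0013) in untreated HCC. With miR-22 it was -0.55 against untreated HCC (SE 0.178, adjusted p = 0.0396), a 1.47-fold lower level that missed the fold threshold, and 0.30 against healthy livers (95% interval -0.09 to 0.69, adjusted p = 0.212). Without untreated liver 4 the change with miR-22 was -0.64 (adjusted p = 0.0338), and without miR-22-treated liver 4 it was -0.62 (adjusted p = 0.0398), both past the threshold, as were -0.59 with upper-quartile factors (adjusted p = 0.0315) and -0.79 with total counts only (0.0080).

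The promoter of Dusp5 is shown because it is the only member promoter that held any of 3 motifs of ERK-responsive transcription, the ETS motif CCGGAAG, the AP-1 motif TGACTCA and the serum response CArG box, each sought on both strands. RefSeq's table (GRCm38.p6) held 6 promoters of 5 of the 10 genes, from 250 bases before to 50 bases after the start, for Dusp5, Dusp6, Spry2, Spred2 and Etv5. None of the 6 held the ETS motif (8.86% of 32851 promoters) or the AP-1 motif (5.20%), and 1 held the CArG box (1.63%). In Dusp5 (chr19:53528895-53529194, plus strand), 2 adjoining CArG boxes began 82 and 72 bases before the start and are in capitals.
Dusp5 promoter: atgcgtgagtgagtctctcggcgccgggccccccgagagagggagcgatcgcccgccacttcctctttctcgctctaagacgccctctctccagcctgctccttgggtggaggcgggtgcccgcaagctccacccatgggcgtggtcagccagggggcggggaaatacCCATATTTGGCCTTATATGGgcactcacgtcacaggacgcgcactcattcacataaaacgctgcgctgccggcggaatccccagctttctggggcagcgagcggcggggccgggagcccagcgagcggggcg

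Sprouty and Spred members did not move as a group. Spry2 rose in untreated HCC, Spry4 fell, and Spred2 was called in none of the 3 comparisons. Spry2, which blocks RAS-ERK signaling below several growth factor receptors (chr14:106128766-106136446, minus strand), had 56.1, 15.9 and 35.2 normalized counts in healthy livers, 115, 167 and 122 in untreated HCC, and 91.0, 54.4 and 77.5 in miR-22-treated HCC. All untreated livers were above all others, and miR-22-treated liver 3 was just below healthy liver 1. The log2 fold change was 1.91 in untreated HCC (SE 0.350, adjusted p = 4.7e-04). With miR-22 it was -0.85 against untreated HCC (SE 0.323, adjusted p = 0.0750), not called by edgeR, whereas DESeq2 gave -0.88 (adjusted p = 0.0329). Leaving out healthy liver 1 (adjusted p = 0.0453) or healthy liver 2 (0.0355) from the fit also brought this difference past the threshold, as did total counts only (0.0264), no filter on low counts (0.0046) and a fit of only the 2 groups compared (0.0323). Against healthy livers the log2 fold change with miR-22 was 1.06 (SE 0.361, adjusted p = 0.0360), a call lost without healthy liver 2 (0.117), healthy liver 3 (0.0939), miR-22-treated liver 2 (0.109) or miR-22-treated liver 4 (0.0772), and with only the 2 groups compared in the fit (0.0601).

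Spry4, a related Sprouty inhibitor on chromosome 18, moved the other way. Its normalized counts were 657, 452 and 329 in healthy livers, 172, 248 and 217 in untreated HCC, and 257, 261 and 249 in miR-22-treated HCC. Every healthy liver was above every HCC liver, and the miR-22-treated livers, which differed little among themselves, were just above the untreated ones. The log2 fold change was -1.17 in untreated HCC (SE 0.212, adjusted p = 4.3e-04) and -0.90 in miR-22-treated HCC (SE 0.212, adjusted p = 0.0052), both against healthy livers. Between the 2 HCC groups it was 0.27 (95% interval -0.20 to 0.74, adjusted p = 0.401), not called.

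Spred2 recruits neurofibromin, a RAS GTPase activator, to the membrane (chr11:19874355-19974442, plus strand). It had 296, 347 and 344 normalized counts in healthy livers, 326, 411 and 329.7 in untreated HCC, and 403, 282 and 320.2 in miR-22-treated HCC. All 3 groups overlapped. Its log2 fold changes were 0.11 (95% interval -0.21 to 0.43), -0.08 (-0.40 to 0.23) and 0.03 (-0.30 to 0.35), with adjusted p-values of 0.544, 0.719 and 0.910 in the order of the comparisons above. In this TMM-scaled fit the intervals leave room for changes of up to 0.43 on the log2 scale, less than the 1.5-fold threshold of 0.58. Over the 18 alternative analyses, the log2 fold change in untreated HCC ranged from -0.0029 to 0.54, with a lowest adjusted p of 0.0123, so this bound depends on the analysis.

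**Figure D2:**
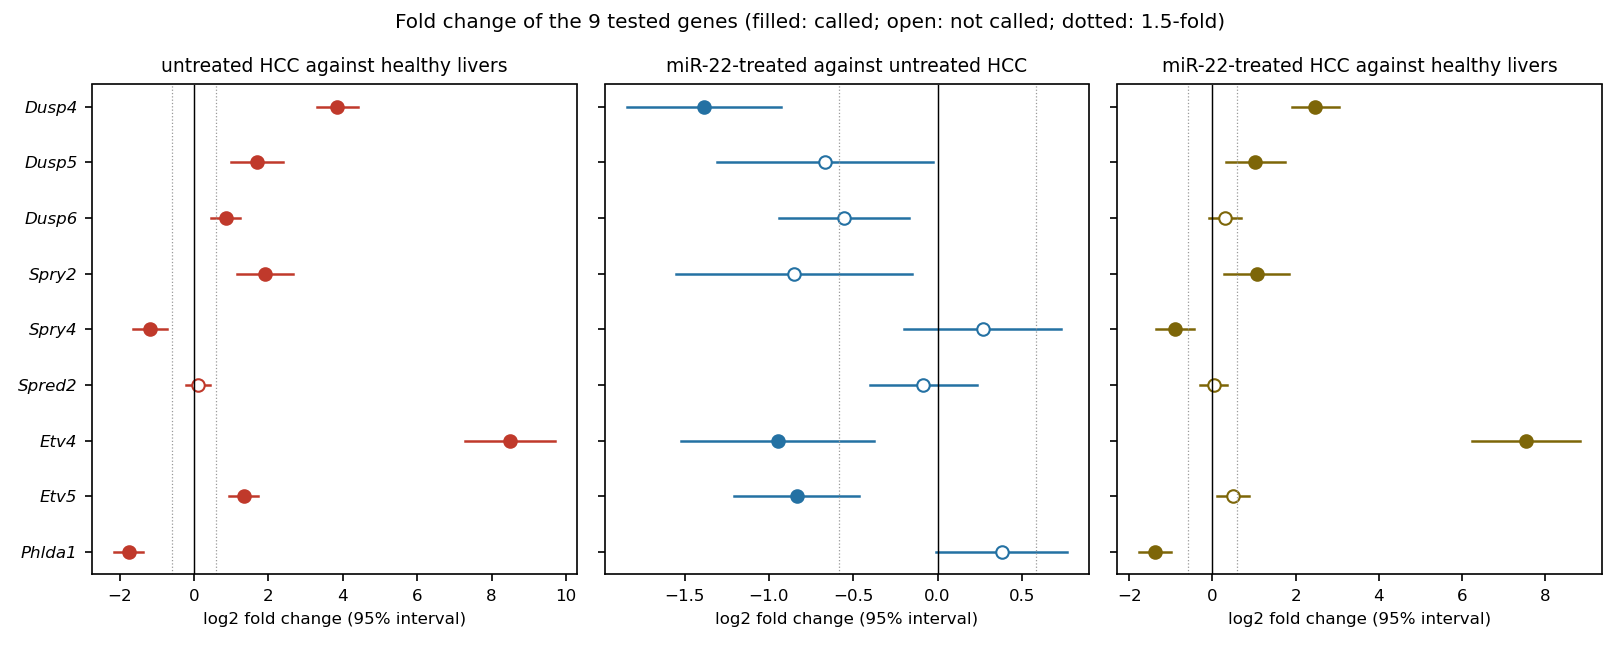
Log2 fold change (points) with 95% interval (lines) of the 9 tested genes in each of the 3 comparisons, filled where called, with dotted lines at 1.5-fold. The x axes differ between panels, and the points of Etv4 against healthy livers (8.49 and 7.54) are fitted values that rest on 2 counts in the healthy group. In the middle panel, Dusp4, Etv4 and Etv5 are filled and Spry4 and Phlda1 lie on the right of 0.

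Among the transcription factors, Etv4 and Etv5 rose in untreated HCC and fell with miR-22. Etv4, an ETS factor of the PEA3 subfamily that ERK signaling induces (chr11:101660568-101676197, minus strand), was at 0, 0 and 2 counts in healthy livers. In untreated HCC it had 285, 442 and 243 normalized counts, and in miR-22-treated HCC 141, 136 and 222. The healthy livers held next to none of it, and both HCC groups held it in every liver. Summed over the groups, 1158 counts stood against 2, which per normalized library was a ratio of 411 with a counting interval of 113 to 3396 (95%, counting error only), and with miR-22 478 against 2 gave a ratio per normalized library of 220.4 (60.7 to 1826). The fitted adjusted p-values were 1.1e-07 and 1.4e-06. From 323 ± 105 in untreated HCC the mean stood at 166 ± 48.5 with miR-22, a log2 fold change of -0.95 (SE 0.263, adjusted p = 0.0206). This call was lost without untreated liver 3, where the log2 fold change was -0.66 (adjusted p = 0.129), and without miR-22-treated liver 2 (adjusted p = 0.0678) or miR-22-treated liver 3 (0.0888).

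Etv5, the close relative of Etv4 (chr16:22200052-22259662, minus strand), was present in healthy livers at 163, 165 and 196 normalized counts. It reached 477, 519 and 330.5 in untreated HCC, and 275, 208 and 258 in miR-22-treated HCC. The groups did not overlap, with the miR-22-treated livers between the others. The log2 fold change was 1.33 in untreated HCC (SE 0.176, adjusted p = 3.5e-05) and -0.84 with miR-22 (SE 0.171, adjusted p = 0.0045), and both calls held in all 18 alternatives. Against healthy livers, miR-22-treated HCC was 1.41-fold higher (log2 fold change 0.50, SE 0.180, adjusted p = 0.0457), under the fold threshold, and without miR-22-treated liver 3 it was 0.61 (adjusted p = 0.0284), past it, as was 0.69 with total counts only (0.0172).

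Fosl1 encodes FRA-1, an AP-1 subunit whose gene and protein are both raised by ERK (chr19:5497575-5505974, plus strand). It was scarce, with 0 counts in each of the 3 healthy livers, 10, 4 and 7 in untreated HCC, and 2, 0 and 0 in miR-22-treated HCC. Its counts were found in all untreated livers and in 1 treated liver. Against a floor of 3 counts over the healthy group, untreated HCC was at least 4.97-fold higher. The 2 counts of the miR-22 group stood against 21 in untreated HCC, a ratio of 0.124 per normalized library with a counting interval of 0.0141 to 0.506, and no ratio is given between the miR-22 and healthy groups, both at or under the floor. With the filter on low counts dropped, the adjusted p was 0.0102 for untreated HCC against healthy livers and 0.197 for miR-22-treated against untreated HCC.

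Phlda1, a pleckstrin homology-like protein often listed among ERK-induced transcripts (chr10:111342147-111344506, plus strand), had the highest level per kb of transcript of the 10 in healthy livers and fell in HCC. It had 1332, 1633 and 1980.5 normalized counts in healthy livers, 532, 495 and 439.9 in untreated HCC, and 810.04, 619.9 and 479.9 in miR-22-treated HCC. Healthy livers were above all HCC livers, and miR-22-treated liver 4 was within the untreated range. The log2 fold change was -1.76 in untreated HCC (SE 0.180, adjusted p = 4.3e-06) and -1.38 in miR-22-treated HCC (SE 0.179, adjusted p = 9.3e-05). Between the HCC groups it was 0.38 (95% interval -0.01 to 0.77, adjusted p = 0.150), not called.

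Ranked by level (CPM per kb of canonical transcript), the order of the 10 genes differed between groups. In healthy livers Phlda1 (43.6 ± 8.58) and Dusp6 (19.5 ± 6.13) led, followed by Spry4 (5.20 ± 1.80), Spred2 (3.53 ± 0.306), Etv5 (2.26 ± 0.238), Dusp5 (0.833 ± 0.283), Dusp4 (0.757 ± 0.159), Spry2 (0.568 ± 0.320), Etv4 (0.0153 ± 0.0264) and Fosl1 (0). Among these neighbours, the livers overlapped between Spry4 and Spred2, between Dusp5, Dusp4 and Spry2, and between Etv4 and Fosl1. In untreated HCC Dusp6 (35.3 ± 4.10) stood first and apart. Phlda1 (12.9 ± 1.22), Dusp4 (11.0 ± 3.14), Etv4 (6.95 ± 2.25), Etv5 (5.71 ± 1.28) and Spred2 (3.82 ± 0.513) followed, and each neighbouring pair among these 5 overlapped. Dusp5 (2.70 ± 0.0933) lay below Spred2 without overlap, it overlapped Spry4 (2.30 ± 0.413), which overlapped Spry2 (2.14 ± 0.448), and Fosl1 was last and apart (0.163 ± 0.0800). Dusp4 thus stood at rank 7 of 10 in healthy livers and at rank 3 in untreated HCC. With miR-22, Dusp6 (24.04 ± 3.06) and Phlda1 (16.8 ± 4.38) overlapped at the top and lay above the rest. Dusp4 (4.19 ± 0.780), Spred2 (3.59 ± 0.662), Etv4 (3.58 ± 1.04), Etv5 (3.19 ± 0.453) and Spry4 (2.77 ± 0.0660) came next, each overlapping its neighbour in this order. Dusp5 (1.69 ± 0.690) lay below Spry4 without overlap and overlapped Spry2 (1.18 ± 0.294), and Fosl1 was last and apart (0.0205 ± 0.0354).

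**Figure D3:**
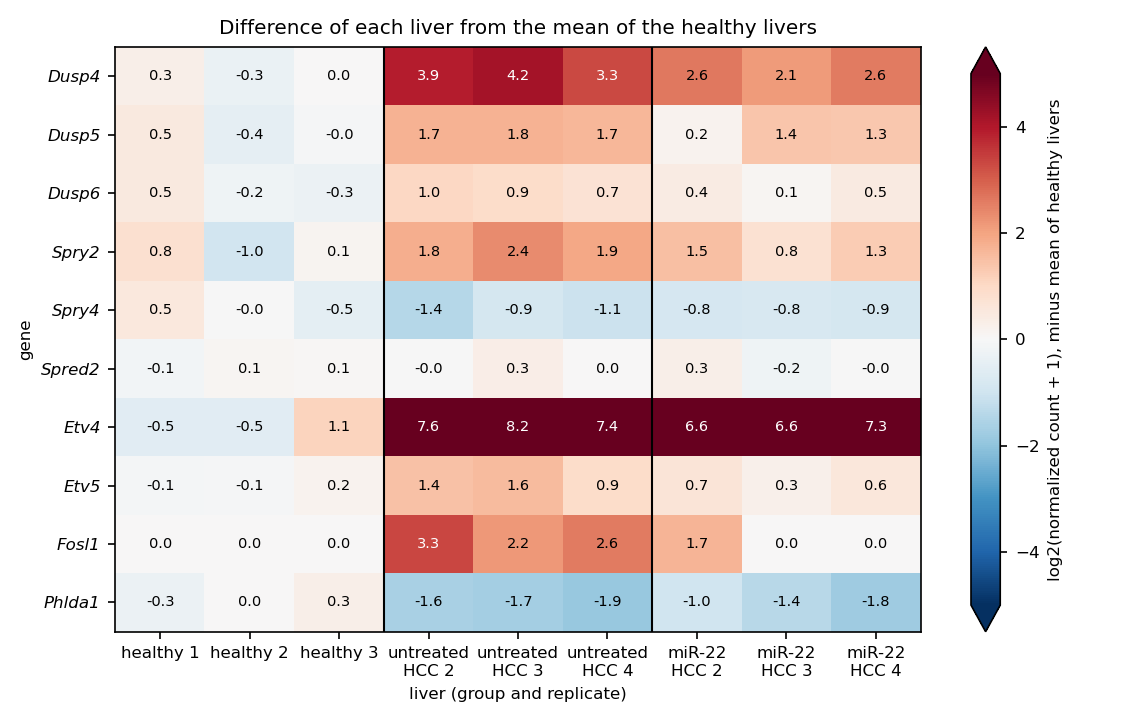
Heat map of the 10 genes (rows) in 9 livers (columns), showing log2(normalized count + 1) minus the mean of the 3 healthy livers, with the value in each cell and the color scale ending at 5 in either direction. Dusp4, Dusp5, Dusp6, Spry2, Etv4 and Etv5 are above the healthy mean in all 6 HCC livers, and Spry4 and Phlda1 below it in all 6.

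Livers of a group differed among themselves. Untreated liver 3 had the highest value of its group for 7 of the 9 tested genes and untreated liver 4 the lowest for 6. In the treated group, liver 3 was lowest for 6 of the 9 and liver 2 highest for 5. Healthy liver 1 was highest of its group for 5 of the 9 and lowest for the other 4, 1 of them Etv4, where it tied with healthy liver 2 at 0 counts. It stood apart in 5 immediate early genes of the output list, named after their values were seen, with normalized counts of 3697 for Egr1 against 287 and 183 in the other healthy livers, 448 for Fos against 44.0 and 28.8, 1433 for Jun against 243 and 228, 2453 for Junb against 561 and 358, and 1986 for Ier2 against 619 and 581. Not all genes of that list did so: Fosb ranged from 3.66 to 6.11 and Ier3 from 9.59 to 11.0 over the healthy livers, both at low levels. The part that the difference of healthy liver 1 had in the values of the 10 genes was not tested. Akt1 was likewise highest in untreated liver 3, lowest in untreated liver 4 and lowest in miR-22-treated liver 3 of their groups, but in the treated group it was highest in liver 4, not liver 2, and its part in the values of the 10 genes was not tested. Of the genes outside the set, the 5 whose log2 CPM followed those of Dusp6 most closely over the 9 livers were Lmf2 (Pearson r = 0.975), Lrwd1 (0.969), Kbtbd13 (0.968), Renbp (0.966) and Ankrd42 (0.966), out of 15708 genes compared. These correlations share libraries and group differences and are a description.

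Other genes of the pathway were counted from lists written by role, with earlier results of these data known. They held 98 genes, of which 94 were tested (Spry3 had no row, and Areg, Epgn and Egr3 were too scarce). In untreated HCC against healthy livers 36 of the 94 were higher (38.3%, against 22.7% of all tested genes) and 9 lower (9.57%, against 18.1%), with a median log2 fold change of 0.38. In miR-22-treated against untreated HCC 7 were higher (7.45%, against 8.32%) and 16 lower (17.0%, against 5.47%), with a median of -0.23. In miR-22-treated HCC against healthy livers 28 were higher (29.8%, against 16.9%) and 4 lower (4.26%, against 7.05%), with a median of 0.20. The lists below hold 3 to 27 tested genes each, and a share of a few genes is read against the same shares of all genes. The 3 comparisons share livers, so these counts are not independent of each other.

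Among 10 tested ligands, 5 rose (50%, against 22.7% of all tested genes) and 2 fell (20.0%, against 18.1%) in untreated HCC. Tgfa, an EGF receptor ligand, had a log2 fold change of 1.92 and Pdgfb, a PDGF chain, one of 3.08, while Fgf1 fell by 2.75 on the log2 scale. With miR-22, Fgf1 rose by 1.63 against untreated HCC, and 3 ligands fell, among them Tgfa (-0.75) and Pdgfb (-0.95). That was 1 of 10 higher and 3 of 10 lower, against 8.32% and 5.47% of all tested genes. Against healthy livers, 5 of 10 ligands were still higher with miR-22 (against 16.9% of all tested genes) and 2 were lower (against 7.05%). Among the 5 were Btc, another EGF receptor ligand (2.24), Pdgfb (2.13) and Tgfa (1.16).

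Of 13 receptors, 5 rose (38.5%, against 22.7%) and 3 fell (23.1%, against 18.1%) in untreated HCC. Fgfr1 (2.21) and Fgfr2 (0.91) were among the higher ones, and Erbb3, a partner of ERBB2, was among the lower (-1.67). With miR-22, 2 receptors rose (15.4%, against 8.32% of all tested genes) and 2 fell (15.4%, against 5.47%). Egfr (1.75, adjusted p = 2.2e-04) and Erbb3 (1.44, adjusted p = 1.1e-05) rose. Fgfr1 (-0.67, adjusted p = 0.0204) and Erbb2 (-1.11, adjusted p = 0.0219) fell, the latter named after its values were seen. Without untreated liver 3, or without miR-22-treated liver 3, the count was 2 higher and 0 lower, so that both falls were lost (adjusted p of Fgfr1 0.101 and 0.0864). Against healthy livers 4 receptors were higher with miR-22 (30.8%, against 16.9%) and 0 lower (against 7.05%). Among the 4 were Fgfr1 (1.54), Fgfr2 (0.67) and Pdgfrb, which is also a stellate cell marker (0.98).

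The cascade itself runs from adaptors to ERK and the kinases below it. Of its 27 tested genes, 5 rose (18.5%, against 22.7% of all tested genes) and 2 fell (7.41%, against 18.1%) in untreated HCC, with a median log2 fold change of -0.10. With total counts only as the scaling, 11 were higher and 0 lower. The risers included Nras (1.29), Mapk3, which encodes ERK1 (1.40), and Rps6ka3, a kinase below ERK (0.93). With miR-22 only Mknk2, an ERK-activated kinase of the translation factor eIF4E, was called among the 27, at 0.87 (adjusted p = 0.0013). That was 3.7% higher and 0 lower, against 8.32% and 5.47% of all tested genes. Without untreated liver 4, or without miR-22-treated liver 4, 2 cascade genes were called, 1 higher and 1 lower, and with total counts only 5 were, 1 higher and 4 lower. Nras differed by -0.36 (adjusted p = 0.0129) and stayed under the fold threshold, which it passed with total counts only (-0.60). Against healthy livers 4 cascade genes were higher with miR-22 (14.8%, under the 16.9% of all tested genes) and 0 lower (against 7.05%). Among the 4 were Nras (0.93), Mapk3 (0.89) and the RAS relative Rras (0.96).

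Among the other dual-specificity phosphatases, Dusp8 rose most in untreated HCC, from 9.40 ± 5.83 to 332 ± 18.8 normalized counts (log2 fold change 5.09, adjusted p = 1.4e-07). Dusp8 acts mainly on JNK and p38. In all, 2 of the 8 rose (25%, near the 22.7% of all tested genes) and 1 fell (12.5%, against 18.1%), the stress-induced Dusp1 (-0.82, adjusted p = 0.0157), a call lost without healthy liver 1 (adjusted p = 0.0895) or untreated liver 4 (0.0594), and with total counts only as the scaling (-0.39, adjusted p = 0.202). The second riser, Dusp16, was at 0.61 (adjusted p = 6.8e-04) and fell under the fold threshold without healthy liver 1 (0.52) or untreated liver 2 (0.51). With miR-22, Dusp1 rose by 1.34 (adjusted p = 0.0031) against untreated HCC and Dusp8 fell to 187 ± 59.6 (-0.83, adjusted p = 0.0230). The Dusp8 call did not hold without any one of untreated livers 2, 3 and 4 or miR-22-treated livers 2 and 3 (adjusted p from 0.0516 to 0.0834), and without miR-22-treated liver 4 the list had 3 genes lower in place of 1. Dusp8 was the 1 gene of the list called between miR-22-treated HCC and healthy livers (4.26), or 12.5% higher against 16.9% of all tested genes. In that comparison 2 were called without healthy liver 1 or miR-22-treated liver 4.

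Spry1 followed Spry2 rather than Spry4 in direction. It rose from 104 ± 20.4 to 300.5 ± 23.9 normalized counts in untreated HCC (log2 fold change 1.52, adjusted p = 1.5e-05) and was at 191 ± 38.6 with miR-22 (-0.65, adjusted p = 0.0172). The latter call was lost without untreated liver 2 (adjusted p = 0.0722) or 3 (0.0592) or miR-22-treated liver 2 (0.0518) or 3 (0.0801). Spred3 was at 2.25 in untreated HCC (adjusted p = 0.0017) and at -1.18 with miR-22 (adjusted p = 0.0701), which passed without untreated liver 4 (0.0346), with DESeq2 (0.0490), with total counts only (0.0305) and with no filter on low counts (0.0376). Spred1 was at 0.38 and -0.19 and was called in neither, although with total counts only it was at 0.81 in untreated HCC (adjusted p = 6.1e-05). Against healthy livers with miR-22, Spry1 was higher (0.88, adjusted p = 0.0028), and Spred3 (1.07) and Spred1 (0.19) were not called.

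Other brakes on the pathway rose in 4 of 10 cases (40.0%, against 22.7% of all tested genes) and fell in none in untreated HCC. They included the RAS GTPase activator Rasal1 (4.05), the ubiquitin ligase Cbl (0.75) and Il17rd, a membrane inhibitor of FGF signaling also known as Sef (2.45). Rasal1 had 17 counts in all in healthy livers, and its log2 fold change ranged from 3.50 to 5.53 over the alternatives. With miR-22, Il17rd fell by 1.26 on the log2 scale (adjusted p = 0.0143), a call lost without untreated liver 3 (adjusted p = 0.0746) or miR-22-treated liver 3 (0.0668). The EGF receptor inhibitor Errfi1 rose by 1.16 (adjusted p = 0.0400), and its call was lost without any one of 6 livers, namely healthy liver 2, the 3 untreated livers and miR-22-treated livers 2 and 3 (adjusted p from 0.0598 to 0.140), with DESeq2 (0.0605) and with total counts only (0.0665). Against healthy livers 3 brakes were higher with miR-22 (30.0%, against 16.9% of all tested genes) and 0 lower (against 7.05%). They were Rasal1 (2.88, from 2.32 to 4.36 over the alternatives), Il17rd (1.19, adjusted p = 0.0294) and the RAS GTPase activator Rasa2 (0.72, adjusted p = 0.0205). The Il17rd call was lost without healthy liver 3 (adjusted p = 0.115) or miR-22-treated liver 2 (0.0722) or 4 (0.0991) and with only the 2 groups compared in the fit (0.0557), that of Rasa2 without healthy liver 1 (0.0825) or 2 (0.0658) or miR-22-treated liver 2 (0.0831), and without miR-22-treated liver 2 1 brake was called.

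Of 23 other tested output genes, 13 rose (56.5%, against 22.7% of all tested genes) and 1 fell (4.35%, against 18.1%) in untreated HCC (median log2 fold change 1.07). With miR-22, 1 rose (4.35%, against 8.32%) and 8 fell (34.8%, against 5.47%) against untreated HCC (median -0.54). Lif, a cytokine of the IL6 family, went from 2.24 ± 1.76 to 187 ± 39.6 normalized counts (6 counts in all in healthy livers), Emp1, a membrane protein, from 41.5 ± 20.6 to 679 ± 62.5, and the receptor kinase Epha2 from 355 ± 42.1 to 1456 ± 177. Epha2 fell with miR-22 to 648 ± 101 (log2 fold change -1.16, adjusted p = 1.7e-04). Ccnd1, cyclin D1, fell by 0.99 on the log2 scale (adjusted p = 3.3e-04), and Plk3, a polo-like kinase, rose by 1.23 (adjusted p = 2.1e-04). Against healthy livers 10 were higher with miR-22 (43.5%, against 16.9%) and 2 lower (8.7%, against 7.05%). Emp1 (3.44), Lif (4.94, from 4.59 to 5.78 over the alternatives) and the zinc finger factor Klf6 (1.59) were among the 10.

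**Figure D4:**
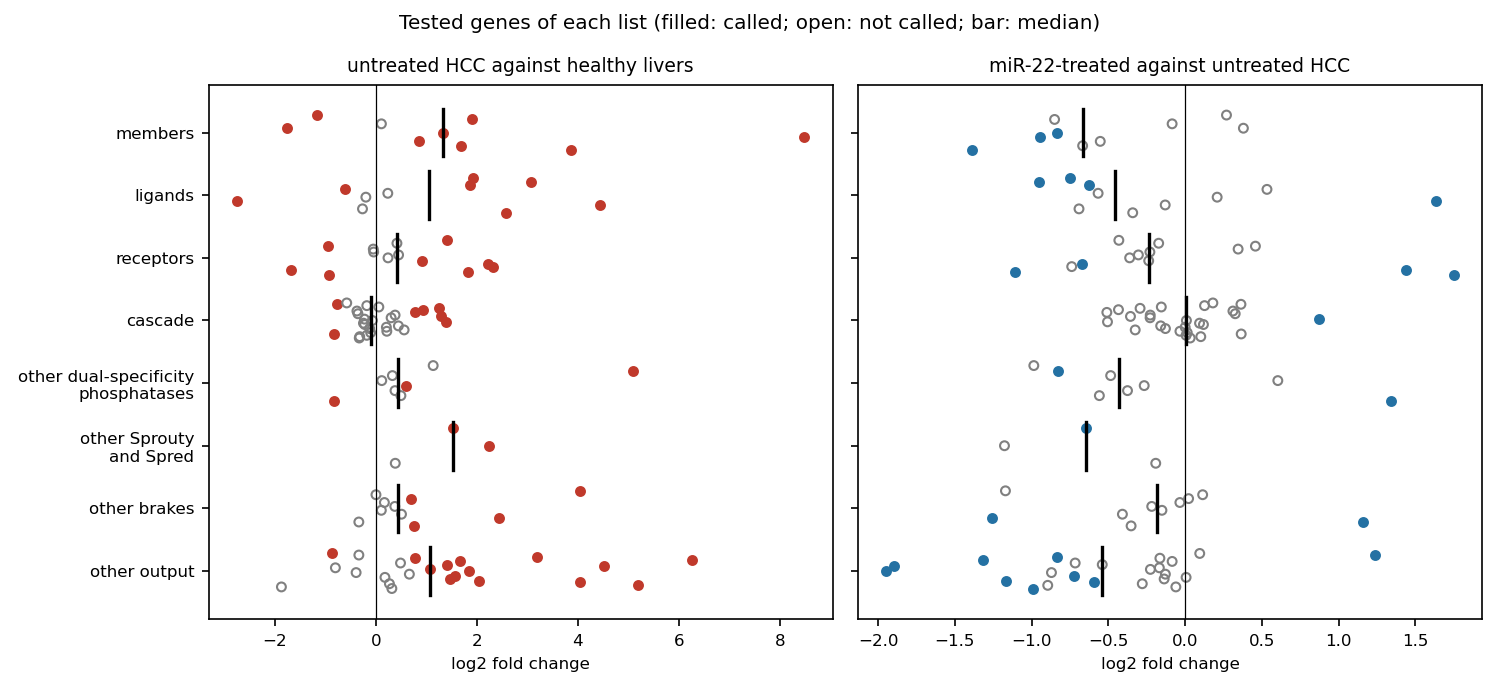
Log2 fold change of each tested gene (points, filled where called) by list (rows), with a bar at the median, for untreated HCC against healthy livers (left) and miR-22-treated against untreated HCC (right). The members' medians are 1.33 and -0.67, and the cascade row centers near 0 in both panels (medians -0.10 and 0.0062).

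Whole livers were sequenced, so fewer cells of a type and less RNA per cell cannot be told apart. The study reported a lower liver-to-body weight ratio and fewer Ki67-positive cells with miR-22 in this tumor model. The part of tumor load in the values of the 10 genes was not tested. Markers of hepatocytes, the main cell of the liver, summed to between 137305 and 141308 CPM (TMM-scaled) in the healthy group, between 55422 and 69618 in untreated HCC and between 83700.1 and 104064 with miR-22, with 9 of 10 called lower and then 6 of 10 called higher with miR-22. Ductal markers were at 48.8 to 60.6, then 3370 to 6302 (6 of 7 higher), then 1588 to 2739 (5 of 7 lower against untreated HCC). Markers of dividing cells were at 9.74 to 14.5, then 145 to 185 (6 of 6 higher), then 90.7 to 135 (3 of 6 lower), and those of stellate cells and fibroblasts at 353 to 423, 844 to 974 and 697 to 794 (4 of 8 higher and 2 lower in untreated HCC, then 2 higher and 1 lower with miR-22). Ductal and dividing-cell markers thus moved in the same directions as Dusp4, Etv4 and Etv5 in both comparisons, and hepatocyte markers in the same direction as Spry4 and Phlda1 in untreated HCC, and their part in these results was not tested. Endothelial markers were at 361 to 449, 229 to 288 and 299 to 386, macrophage markers at 439 to 563, 465 to 539 and 556 to 591, and lymphocyte markers at 7.69 to 11.0, 7.77 to 10.6 and 8.10 to 12.1. Neutrophil markers were at 1.70 to 4.46, 16.2 to 21.4 and 15.4 to 24.1 in the same order of groups, with no count of Ly6g, Camp and Ngp in healthy livers and none of Ly6g in untreated HCC.

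Of the 4 genes with a miR-22 seed match in the 3′ UTR, Etv4 was called lower with miR-22, Spry2 and Spred2 were not called, and Fosl1 did not pass the filter on low counts and was not called with the filter dropped (adjusted p = 0.197). Dusp4 and Etv5, the other 2 genes called lower, had no match.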

How the data were processed

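RNA from 9 whole livers was sequenced as 3 libraries per group. According to the study's methods and the submitters' processing notes, libraries were made with a kit that does not mark strand, reads were checked with FastQC 0.11.7, quantified with Salmon on GRCm39, summed per gene with tximport and analysed with DESeq2 1.18. The authors deposited the counts as whole numbers per gene, without a filter, and these counts were used for every result. The deposited normalized table was not used. Because strand was not marked, reads of overlapping or antisense genes cannot be told apart.

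Here, genes were filtered with filterByExpr (15717 of 55401 kept), scaled with TMM (factors 0.865 to 1.22) and fitted with edgeR 4.0.16 in R 4.3.3, with all 9 libraries in a single fit without covariates. Each log2 fold change has its standard error (SE), and 95% intervals use the fit's degrees of freedom. A fold against a group at 0 uses a floor of 3 counts over the group, and ratios with a counting interval cover counting error only. The common dispersion was 0.0206. The scripts were tested on simulated counts. Alternatives were DESeq2 1.42.0, other scalings and filters, a 2-group fit, a replicate block, no fold threshold, and each library left out. Dropping the fold threshold kept the main fit and could only add calls. For the 10 genes, all were named. From each pathway list and comparison, up to 3 called genes with the smallest p were named, and lists of 4 or fewer genes whole. Members and lists were chosen with earlier results of these data known. Positions come from GENCODE M39 on GRCm39, and RefSeq tables on GRCm38.p6 gave the miRNA and promoters. Figures were drawn with matplotlib 3.10.9 in Python 3.11.15.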

Additional observations from a re-analysis of the deposited data

How the results depend on the processing

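Over 18 alternative analyses, 443 of 483 fold changes of the 9 tested genes kept their direction and their side of the threshold, 15 lost the call, 17 gained it and 8 changed sign. All 8 sign changes were of Spred2, whose values lay near 0. With 1 liver left out it ranged from -0.0029 to 0.17 in untreated HCC against healthy livers, from -0.24 to 0.028 in miR-22-treated against untreated HCC and from -0.14 to 0.13 in miR-22-treated HCC against healthy livers, and in the last comparison it was -0.0039 with DESeq2, -0.0039 with its size factors in edgeR and -0.0041 with the replicate block. The count of called genes in miR-22-treated against untreated HCC was 3, and it was 6 with total counts only and 5 with no filter on low counts. Leaving out 1 liver gave 2 to 4, against 8 throughout in untreated HCC against healthy livers and 4 to 6 in miR-22-treated HCC against healthy livers. The cause was not tested. Total counts alone moved the median of all genes by 0.42, -0.24 and 0.19 on the log2 scale and the split of all calls from 3575 higher and 2842 lower to 5986 and 1492, from 1308 and 859 to 835 and 2164, and from 2664 and 1108 to 3408 and 593.

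Livers of the 2 HCC groups that share a number did not deviate together (correlations -0.116, -0.116 and -0.227). With deviations taken from the mean of 3 livers per group, these correlations cannot show whether the number pairs them. A fit with the replicate block called 8, 2 and 6 of the genes in the 3 comparisons. Under the block, the adjusted p was 0.0608 for Etv4 with miR-22 against untreated HCC, and against healthy livers 0.0199 for Dusp6 and 0.0668 for Spry4. Among other pathway genes, the block ended the calls of Dusp1 (-0.29, adjusted p = 0.124) and Dusp16 (0.53, adjusted p = 0.0223) in untreated HCC against healthy livers, of Fgfr1 (-0.64, adjusted p = 0.0671) and Spry1 (-0.66, adjusted p = 0.0531) in miR-22-treated against untreated HCC, and of Il17rd (adjusted p = 0.107) and Rasa2 (0.59, adjusted p = 0.117) in miR-22-treated HCC against healthy livers. It left 1 other phosphatase called in the first comparison, 2 receptors (both higher) and 0 Sprouty or Spred genes in the second, and 1 brake and 2 other phosphatases in the last. Of the fold changes of named pathway genes, 1038 of 1085 kept their call, and 324 of 378 counts per list stayed within 1.5 times. With total counts only, 6 other phosphatases and 7 brakes were higher and 0 lower in untreated HCC against healthy livers, and 3 and 4 were lower with miR-22 against untreated HCC. The few counts of Fosl1, and of Etv4 in healthy livers, limit the precision of their ratios.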
